A study of Mus musculus with 2 samples.

Results

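The genes described here encode the machinery that copies DNA in S phase: 38 genes for origin licensing, helicase activation, priming, the sliding clamp and its loader, Okazaki fragment maturation, nucleotide supply, chromatin assembly, fork protection and G1/S control. They were chosen by name and function, with no measured value in the rule, and all 38 were found among the 16385 genes of the deposited table. RNA came from mouse CD4+ T cells kept for 72 h under Th17 conditions, in which naive helper T cells turn into IL-17 producers. The cytokines were IL-6 at 20 ng/mL and TGF-β at 0.1 ng/mL, and the stimulating antibodies were anti-CD28 at 1 µg/mL and, for CD3ε, an antibody at 0.25 µg/mL. The knockout group consisted of 2 libraries from Malat1 knockout cells (strain C57BL/6), called biological replicates by the submitters. The group it was set against, 2 wild-type Th17 libraries, belongs to another series, so genotype and series cannot be told apart. That group is known here through the authors' fit, apart from opening rows of the deposited table that were seen. The sources used here do not give the kind of Malat1 allele, the number of animals behind each culture or their age. A characteristics label of replicate 2 reads Malat2 where the title reads Malat1, and the title was followed. The genotype rests on the titles, since Malat1 RNA is not analysed here.

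T cells stimulated through the antigen receptor leave quiescence and divide, and replication genes are switched on together as they pass from G1 into S phase. In G1, CDC6 and CDT1 load the ring of MCM2 to MCM7 onto origins, and in S phase CDC45 and the GINS complex turn this ring into the active helicase. Much of this programme is transcribed through E2F factors, which are held in check by the retinoblastoma family until cyclin-dependent kinases, cyclin E with CDK2 among them, release them.

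The promoters were searched for E2F words because these are the shared sequence feature the members are best known for. Since E2F-driven genes were among those the list was drawn up to hold, an excess of such words follows in part from the choice of genes and is given as a description. RefSeq promoters (GRCm38.p6, 250 bases before to 50 after the start) were held for 31 of the 38 genes, with 36 promoters in all. The start is that of the promoter entry, and in some genes, Lig1 among them, it lies inside the annotated span of the gene. The words searched were TTTCCCGC, TTTGGCGC, TTTCGCGC and TTTGCCGC on both strands. At least 1 word stood in 13 of the 36 promoters (36.1%, 95% Wilson interval 22.5 to 52.4), against 2.26% of all 32851 promoters and 4.04% of those of genes tested with a mean normalized count of at least 50. Counted by gene, 13 of 31 replication genes had a word, as did 19 of 65 other genes of the pathway and 1 of 27 genes of G2 and M phase. Median promoter GC content was 61.3% for the replication genes and 60.7% for the tested genes. A match is a description of letters and not a binding site, and words on opposite strands can overlap, as TTTCGCGC and TTTGGCGC do in Mcm5. The 250 bases before the start are shown for 3 subunits of the MCM ring, for the ring loader Cdc6 and for the GINS subunit Gins3, as examples of where the words lie, with the words in capitals and the gene's strand read 5′ to 3′.
Mcm5 promoter, chr8:75109259-75109508, plus strand: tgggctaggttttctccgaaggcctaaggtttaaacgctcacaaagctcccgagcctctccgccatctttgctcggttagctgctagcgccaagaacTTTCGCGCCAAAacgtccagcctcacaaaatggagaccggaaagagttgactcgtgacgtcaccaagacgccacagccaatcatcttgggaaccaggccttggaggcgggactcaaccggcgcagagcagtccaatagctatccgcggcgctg
Mcm6 promoter, chr1:128359706-128359955, minus strand: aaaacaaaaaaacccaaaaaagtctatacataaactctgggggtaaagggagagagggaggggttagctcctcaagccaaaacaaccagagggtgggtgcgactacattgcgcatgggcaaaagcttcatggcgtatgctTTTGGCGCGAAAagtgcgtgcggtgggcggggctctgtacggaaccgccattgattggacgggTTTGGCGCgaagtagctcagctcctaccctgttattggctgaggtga
Mcm7 promoter, chr5:138171884-138172133, minus strand: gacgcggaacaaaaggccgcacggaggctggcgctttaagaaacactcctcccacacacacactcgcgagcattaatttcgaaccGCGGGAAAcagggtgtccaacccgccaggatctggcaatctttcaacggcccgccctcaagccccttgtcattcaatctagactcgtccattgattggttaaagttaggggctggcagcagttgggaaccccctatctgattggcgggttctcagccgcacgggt
Cdc6 promoter, chr11:98907901-98908150, plus strand: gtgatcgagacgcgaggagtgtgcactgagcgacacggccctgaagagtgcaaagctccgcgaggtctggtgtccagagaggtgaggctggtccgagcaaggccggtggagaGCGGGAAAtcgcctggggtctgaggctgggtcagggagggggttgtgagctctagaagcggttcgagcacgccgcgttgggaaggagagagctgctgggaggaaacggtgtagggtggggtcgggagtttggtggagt
Gins3 promoter, chr8:95633309-95633558, plus strand: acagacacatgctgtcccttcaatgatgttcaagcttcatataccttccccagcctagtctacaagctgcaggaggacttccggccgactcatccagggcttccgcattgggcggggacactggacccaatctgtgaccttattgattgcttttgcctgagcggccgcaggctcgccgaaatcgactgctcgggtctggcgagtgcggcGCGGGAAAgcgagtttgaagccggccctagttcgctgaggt
Mcm6 held 3 words in this window, more than the other promoters shown. The 19 words found in all 13 promoters began between 185 bases before the start and 38 bases after it, 13 of them before it.

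**Figure D1:**
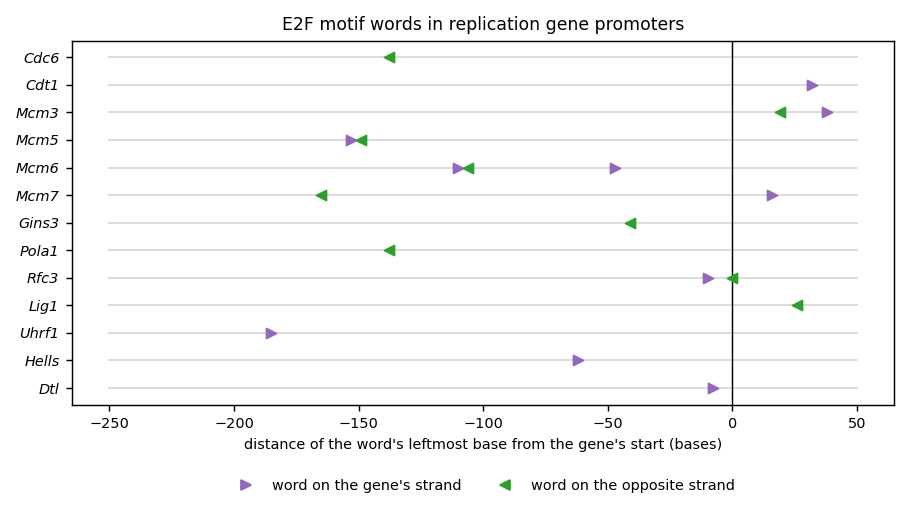
Position of E2F words in the promoters of the 13 replication genes that held one. Each row is a gene, and arrowheads give the strand of the word. The horizontal axis is the distance in bases of the word's leftmost base from the start of the RefSeq promoter entry, labelled the gene's start. Of the 19 words, 13 begin before the start.

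The knockout libraries held 21554852 counts (replicate 1) and 26916169 counts (replicate 2), and every replication gene had counts in both. T cell genes were abundant: the summed normalized counts of 10 pan T cell genes were 86786 and 81098 in knockout, against an implied wild-type sum of 78577, and those of 7 Th17 genes were 112727 and 111023 in knockout, against an implied 93608. Il17f, the 1 Th17 gene of the list that passed an adjusted p of 0.05 by the authors' DESeq2 (higher in knockout), led it at a knockout mean of 61867. The implied wild-type mean is the value that the authors' mean over 4 libraries leaves once both knockout values are taken out. Markers of other blood cells were low. Sums in the knockout libraries were 280 and 288 for 2 CD8 T cell genes, 204 and 168 for 9 myeloid genes and 53.2 and 68.3 for 7 erythroid and platelet genes, 1 of which had 0 counts in both libraries. The implied wild-type sums of these lists were 329, 195 and 138. Of 7 B cell genes, Ebf1 alone stood at 1137 in the knockout mean, and the list's median was 0.967. The last list held 15 kidney, mesenchymal and smooth muscle genes. Most were picked because earlier results of these data had them near absent from knockout, so its values follow largely from that choice. At an adjusted p under 0.05 by the authors' DESeq2, 12 were lower in knockout and 3 did not pass. Of all 14481 genes with an adjusted p, 0.159% passed in either direction. Summed normalized counts of the 15 were 51.3 and 73.6 in knockout, against an implied 12306 in wild type. The opening rows of the deposited table, seen when it was opened, showed 1 wild-type library far above the other in such genes. This implied value may therefore be a mean over unlike libraries and not a level common to the group. The wild-type values of the 15 genes were not compared library by library. Together, 235 genes were near absent from knockout (implied wild-type mean of 100 or more, knockout under 2% of it). They made up 0.00119% of the knockout signal and 0.637% of the implied wild-type signal, a mean that may have the same limit. The part of that RNA in the comparisons below was not tested.

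Replication genes were well expressed in the knockout cells. Normalized counts, which are counts divided by the authors' size factor for each library, had a mean over both libraries of 141 for Gins1 at the low end and 6014 for Rrm1 at the high end. Levels of different genes were compared per kilobase of exon. On that scale 34 of the 38 genes lay above the median of all tested genes (97.1 normalized counts per kb), and 7 lay in the top 10% (762 or more). With the length of the longest coding transcript, an alternative chosen after seeing the data, these counts were 36 and 5. Pcna, the sliding clamp that holds the polymerases on DNA, was the highest at 2279 ± 33.5 normalized counts per kb, and Ung, which removes uracil from DNA, was the lowest at 66.7 ± 7.53 (SD, n = 2 for each), a 34.2-fold range. With transcript length Pcna was still the highest (3603), Ung stood at 171 and Gins3 was the lowest (101), a 35.6-fold range.

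The 6 subunits of the MCM ring, which enter the helicase as 1 copy each, were not equally abundant as RNA. Mcm3 was the highest at 1475 and 1559 normalized counts per kb in the knockout libraries, and Mcm2 the lowest at 277 and 313. Mcm4, Mcm6, Mcm5 and Mcm7 lay between them at means of 1091, 993, 928 and 733 normalized counts per kb. The order was the same in both libraries. The ratio of the highest to the lowest subunit was 5.13 with the length of all exons of a gene and 3.08 with the length of its longest coding transcript, under which Mcm5 and Mcm7 came ahead of Mcm4 and Mcm6. Mcm3 stayed first and Mcm2 last with both lengths. The ring's loaders were less abundant per kb than each subunit, at 174 ± 28.8 for Cdc6 and 204 ± 4.05 for Cdt1 (SD, n = 2 for each).

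In other complexes the balance per kb depended on the length used. Within ribonucleotide reductase, which makes deoxynucleotides, the regulated small subunit Rrm2 stood at 1479 ± 205 normalized counts per kb and the large subunit Rrm1 at 546 ± 31.5 (SD, n = 2), a ratio of 2.71 that became 1.24 with transcript length. Uhrf1, which recruits the maintenance methyltransferase to hemimethylated DNA, reached 1049 ± 64.2, while Chaf1a and Chaf1b, the large and middle subunits of the histone chaperone CAF-1, stood at 187 ± 9.37 and 115 ± 5.10, a ratio of 1.62 that became 1.06 with transcript length. Cyclin E1 exceeded cyclin E2 per kb, with Ccne1 at 453 ± 5.12 and Ccne2 at 205 ± 43.0 (SD, n = 2), a ratio of 2.21 that became 2.53 with transcript length. Tipin, a fork protection factor, was at 752 ± 17.7 normalized counts per kb and thus among the top 10 replication genes. In 3 genes, Gins2, Fen1 and Chaf1a, over 50% of the exon length is shared with exons of a gene on the other strand (67.3%, 84.2% and 52.5%, GENCODE M21), and since the strand setting of the counting is not given, their levels are uncertain. Pcna and Tyms have annotated processed pseudogenes, with which reads could be shared.

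**Figure D2:**
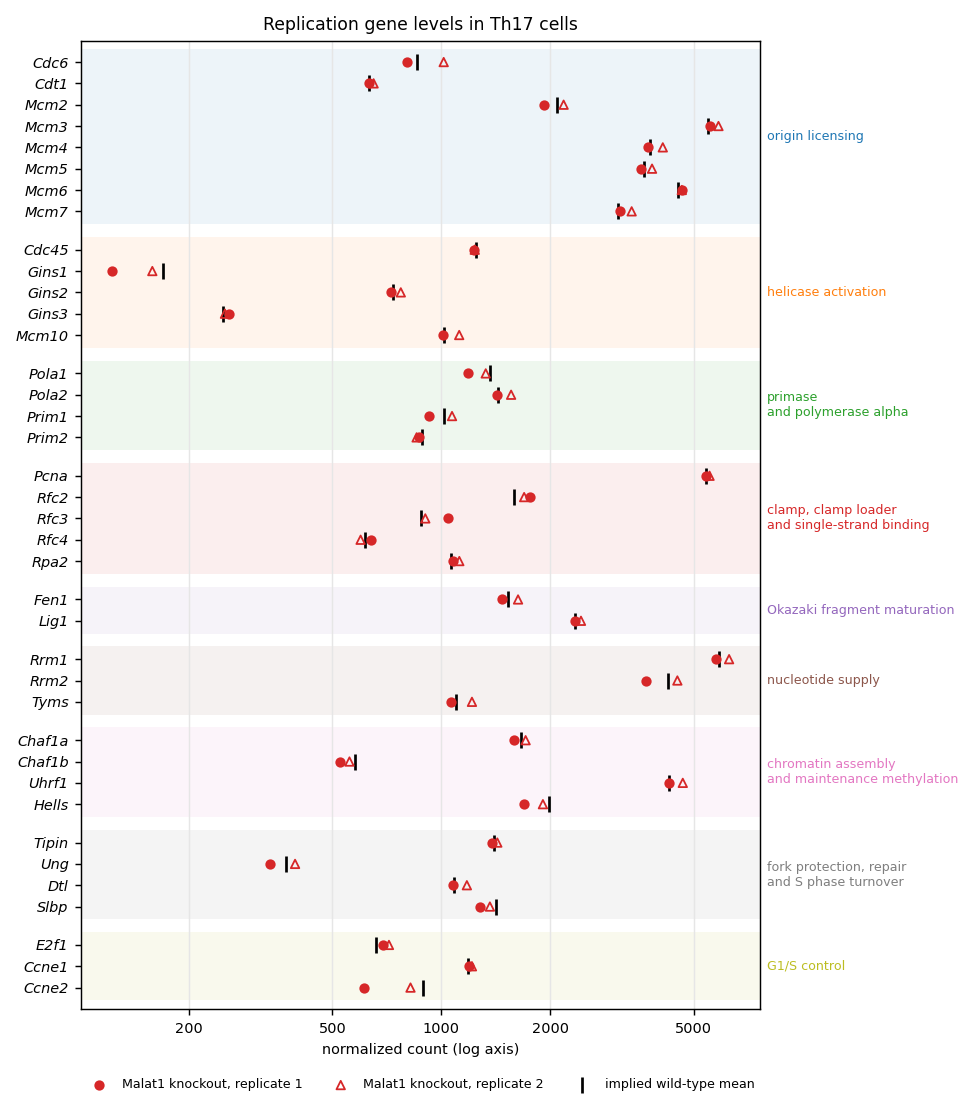
Normalized counts (log axis) of the 38 replication genes by role: filled circles are knockout replicate 1, open triangles knockout replicate 2 and black ticks the implied wild-type mean. In 18 genes the tick lies between the knockout libraries, in 8 above both and in 12 below both.

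The knockout libraries differed from each other in these genes in 1 main direction. Replication genes took 0.339% of all counts in replicate 1 (95% Wilson interval 0.336 to 0.341) and 0.371% in replicate 2 (0.369 to 0.373), intervals that cover counting error only. By normalized counts, 32 of the 38 were higher in replicate 2, with a median log2 ratio (replicate 2 over replicate 1) of 0.10. The 8838 genes in the same range of mean normalized counts had a median ratio of 0.0023, and 50.6% of them were higher in replicate 2. Of 82 other genes of the pathway, 65 were higher in replicate 2, with a median ratio of 0.10. Genes of G2 and M phase had the same lean, with 27 of 30 higher in replicate 2 and a median ratio of 0.095. In contrast, 8 of 10 pan T cell genes were lower in replicate 2. With 1 library on each side, these differences have no replicate check.

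The largest difference between the knockout libraries was in Ccne2, at 609 and 822 normalized counts, a log2 ratio of 0.43 (95% exact interval for counting error 0.29 to 0.58). Gins1 followed at 123 and 159 normalized counts (0.37, interval 0.044 to 0.70), and Cdc6 at 803 and 1016 (0.34, interval 0.21 to 0.47). In 21 genes the counting interval lay above 0, in 16 it held 0, and in 1, the clamp loader gene Rfc3, it lay below 0. All 3 clamp loader genes of the list were lower in replicate 2, with ratios of -0.20 for Rfc3, -0.099 for Rfc4 and -0.058 for Rfc2. The clamp loader subunits outside the list, Rfc1 and Rfc5, were higher in replicate 2. Rfc1 had 2713 and 2733 normalized counts in replicates 1 and 2, and Rfc5 had 959 and 1028. The nucleotide supply genes leaned most towards replicate 2, with a median ratio of 0.20 over Rrm1, Rrm2 and Tyms. Over the same-range genes, the ratio between the libraries correlated with GC content at a Spearman rho of -0.36 across genes, which are not independent replicates. In the 3689 of these genes with a GC content from 45.6% to 53.5%, the middle range of the replication genes, 1844 were higher in replicate 2. Over the 38 replication genes themselves, the same rho was -0.12.

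**Figure D3:**
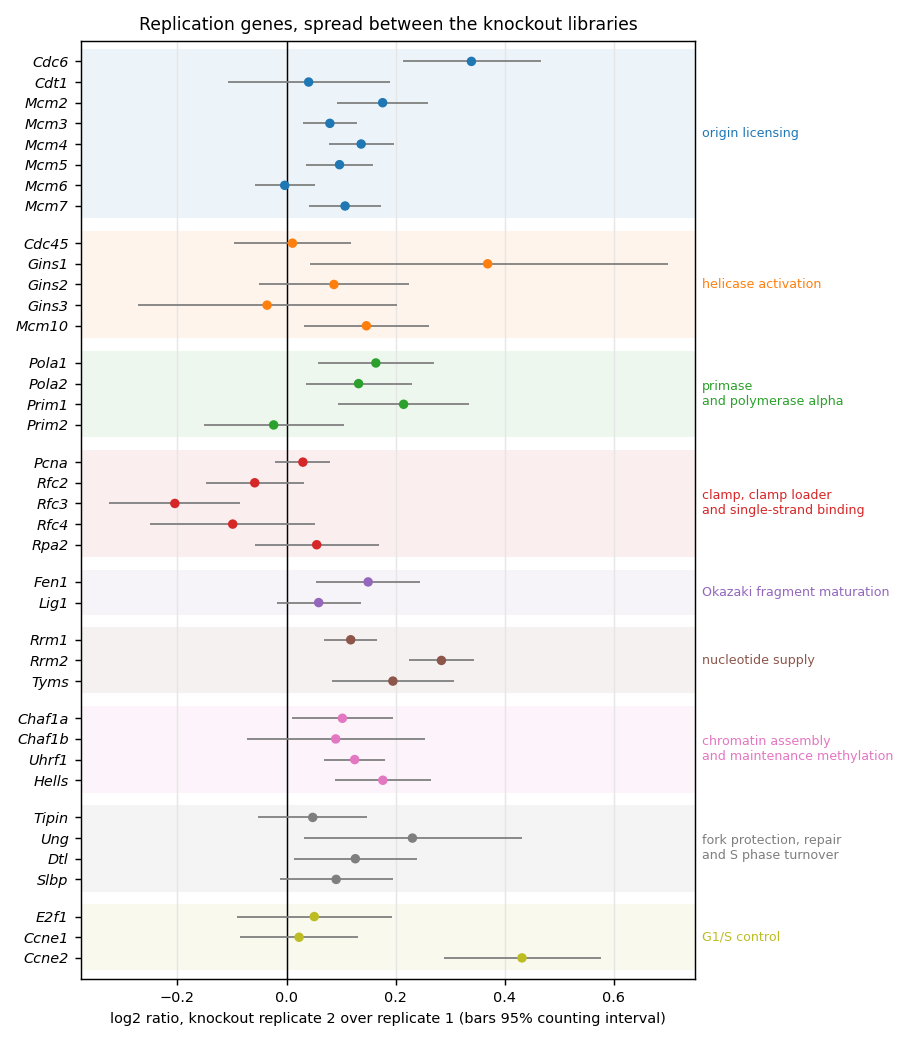
Log2 ratio of knockout replicate 2 over knockout replicate 1 for each replication gene, grouped by role, with bars for the 95% interval of counting error. Points lie to the right of 0 for 32 of 38 genes, and Rfc3 is the 1 gene whose whole interval lies to the left.

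The study set Malat1 knockout against wild-type Th17 cells to find transcripts that differ when Malat1 is missing. No replication gene differed detectably. In the authors' deposited table, 0 of 38 passed an adjusted p of 0.05 in either direction (the authors' DESeq2 Wald test, Benjamini-Hochberg), against 0.159% of the 14481 genes with an adjusted p. At an unadjusted p under 0.05 the count was also 0 of 38, against 2.39% of the same 14481 genes in the authors' deposited table. The smallest unadjusted p among the 38 was 0.376, for Ccne2, and every adjusted p rounded to 1 in the authors' DESeq2 fit. At these shares of called genes, a list of 38 with 0 called lies near the background. A change in the share of dividing cells and a change in RNA per cell cannot be told apart in bulk RNA. This holds here and in the rest of the comparison.

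Fold changes of the replication genes were small. The median log2 fold change, knockout over wild type, was 0.031 in the authors' deposited table, 25 genes lay above 0 and 13 below, and 32 lay within 0.1 of 0. For the 8902 tested genes in the same range of means the median was 0.0014, with 50.5% above 0 and 53.8% within 0.1. Over all tested genes the median was -0.024 and 44.7% lay above 0. The sign of the list's median rested on which knockout library was used: against the implied wild-type mean it was -0.021 without replicate 2 and 0.067 without replicate 1.

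What these data could have shown depends on each gene's standard error. In the authors' deposited table, standard errors on the log2 scale ran from 0.13 for Pcna to 0.61 for Gins1, with a median of 0.24. The 95% intervals (normal, from these standard errors) left out 2-fold changes in both directions for 36 of the 38 genes, the exceptions being Gins1 and Ccne2. Changes of 1.5-fold in both directions were left out for 26 genes and those of 1.2-fold for 0. These counts describe which changes the intervals left out, not which changes would have been detected. The change each gene needed to pass the adjusted p threshold was not computed. Changes that the intervals did not leave out may have gone undetected at this depth with 2 libraries a group. For every gene these include a 1.2-fold change in at least 1 direction.

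**Figure D4:**
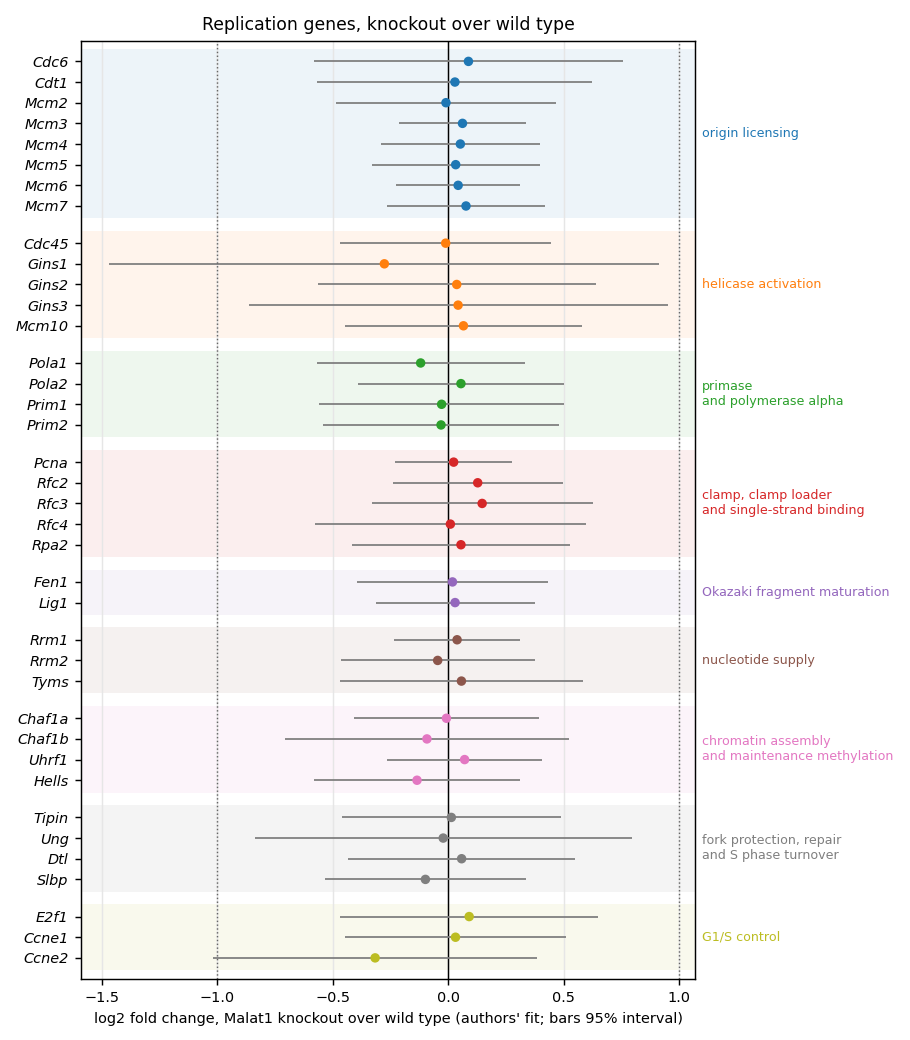
Log2 fold change, Malat1 knockout over wild type, from the authors' deposited table for each replication gene by role, with bars for the 95% interval; dotted lines mark 2-fold changes. Every interval holds 0, and those of Gins1 and Ccne2 reach past a dotted line.

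Among licensing genes, the MCM ring was close to wild type in all its subunits. Their log2 fold changes ran from -0.0097 for Mcm2 to 0.077 for Mcm7 in the authors' deposited table. Mcm2 had 1930 and 2181 normalized counts in knockout, against an implied 2086 in wild type, which lies between the knockout values. Mcm3 had 5535 and 5849 in knockout, against 5462 in wild type, just below both. For Mcm4 the knockout values were 3731 and 4102, against 3786 in wild type. The ring's wild-type means thus lay inside or a little below the knockout range. Mcm5 had 3581 and 3831 in knockout, against 3646 in wild type. Mcm6 was nearly equal in the knockout libraries at 4640 and 4630, against 4509 in wild type. Mcm7 had 3123 and 3364 in knockout, against 3081 in wild type. Its fold change in the authors' deposited table, 0.077 (SE 0.18, interval -0.27 to 0.42), was the largest of the ring and smaller than its standard error. Cdc6 had a fold change of 0.088 (SE 0.34) in the authors' deposited table, with 803 and 1016 normalized counts in knockout on either side of the implied 859 in wild type.

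Helicase activation and priming genes lay on both sides of 0. Gins1, a GINS subunit, had 123 and 159 normalized counts in knockout, both below the implied 170 in wild type, and a log2 fold change of -0.28 (SE 0.61, interval -1.47 to 0.92) in the authors' deposited table. It is the least abundant gene of the list in normalized counts and the one with the widest interval. Its partners did not share that lean, with 0.037 for Gins2 and 0.043 for Gins3 in the authors' deposited table. Cdc45, the third component of the active helicase, was at -0.011 there and Mcm10, which helps to activate it, at 0.066, both from the authors' deposited table. Pola1, the catalytic subunit of polymerase alpha, had 1185 and 1327 normalized counts in knockout, against 1363 in wild type. Its fold change was -0.12 (SE 0.23) in the authors' deposited table and -0.041 with the trend on GC content subtracted, while its accessory subunit Pola2 was at 0.055 and the primase subunits Prim1 and Prim2 were at -0.029 and -0.031.

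Clamp and clamp loader genes of the list were the 1 role group of at least 3 genes with every fold change above 0. This did not hold for the clamp loader subunits outside the list, with Rfc1 at 0.075 and Rfc5 at -0.046 in the authors' deposited table. Rfc3, a clamp loader subunit (chromosome 5, 151642756 to 151651242, minus strand, GRCm38), had the highest fold change of the list, 0.15 (SE 0.24, interval -0.33 to 0.63) in the authors' deposited table. Its normalized counts were 1041 and 903 in knockout, against 878 in wild type. The knockout libraries thus lay further from each other than the nearer one did from wild type. Rfc2 had 1765 and 1696 normalized counts in knockout, both above the implied 1585 in wild type, and a fold change of 0.13 (SE 0.19) in the authors' deposited table. Pcna was at 0.024 (SE 0.13), Rfc4 at 0.0094 and Rpa2, a subunit of the single-strand binding protein RPA, at 0.055 in the authors' deposited table. The Okazaki fragment genes were close to 0 as well, with 0.018 for the flap nuclease Fen1 and 0.030 for the ligase Lig1 in the authors' deposited table.

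Nucleotide and chromatin genes also lay on both sides of 0. In the authors' deposited table Rrm1 was at 0.038, Rrm2 at -0.046 and Tyms, which makes thymidylate, at 0.057. Rrm2 differed more between the knockout libraries (3697 and 4502 normalized counts) than their mean of 4099 did from the implied 4242 in wild type. Hells, a chromatin remodeller needed for DNA methylation, had 1691 and 1911 normalized counts in knockout, against 1984 in wild type, and a fold change of -0.14 (SE 0.23) in the authors' deposited table, which was -0.0069 with the GC trend subtracted. Both knockout libraries were below the wild-type mean. Chaf1b had 523 and 557 in knockout, against 575 in wild type (-0.092, SE 0.31, in the authors' deposited table), and its partner Chaf1a was at -0.0076. Uhrf1 had 4273 and 4659 in knockout, against 4266 in wild type, with a fold change of 0.071 (SE 0.17) in the authors' deposited table.

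Of the turnover and fork genes, Slbp, which binds the stem-loop of replication-dependent histone mRNAs, had 1280 and 1363 normalized counts in knockout, against 1416 in wild type. The authors' deposited table gives it a fold change of -0.099 (SE 0.22). Tipin was at 0.014, Ung at -0.022 and Dtl, a substrate receptor of the ubiquitin ligase that destroys CDT1 in S phase, at 0.058 in the authors' deposited table.

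The G1/S regulators held the lowest deposited fold change of the list, that of Ccne2. Ccne2 (chromosome 4, 11191351 to 11204779, plus strand, GRCm38) had 609 and 822 normalized counts in knockout, both below the implied 889 in wild type. Its log2 fold change was -0.32 (SE 0.36, interval -1.02 to 0.38, adjusted p 1.00 by the authors' DESeq2) in the authors' deposited table. With the trend on GC content subtracted it was -0.17, and Gins1 was then the lowest at -0.27. The spread between its knockout libraries, 0.43 on the log2 scale, exceeded this difference. Ccne1, the other cyclin E gene, had 1197 and 1216 in knockout, against 1186 in wild type (0.032, SE 0.24, in the authors' deposited table). E2f1, an activator of the S phase programme, had 692 and 716 in knockout, against 661 in wild type, and a fold change of 0.091 (SE 0.28) in the authors' deposited table. Both knockout values of E2f1 and of Ccne1 lay above the gene's implied wild-type mean, whose spread is not known here. The difference between Ccne2 and Ccne1 was not tested.

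Fold changes were also set out by E2F word. The 13 genes with a word had a median log2 fold change of 0.043 (from -0.14 to 0.15, 11 above 0), and the 18 with a promoter but no word had 0.014 (from -0.099 to 0.091, 10 above 0), by the authors' deposited table. The difference between these medians was not tested. With the GC trend subtracted, Cdt1, Mcm5 and Lig1 of the genes with a word turned below 0. Of those without a word, Fen1 and Ccne1 turned below 0 and Prim1 above it.

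The rest of the replication pathway was measured in a list of 82 further genes: origin recognition and firing factors, polymerases delta and epsilon, checkpoint, nucleotide and chromatin genes, and other E2F, retinoblastoma, cyclin and CDK genes. In the authors' deposited table, 0 of the 82 passed an adjusted p of 0.05 and 0 had an unadjusted p under 0.05 (the authors' DESeq2), against the same 0.159% and 2.39% of the 14481 genes with an adjusted p. Their median log2 fold change was -0.016, with 36 above 0 and 46 below. By function, 8 of 10 fork protection and checkpoint genes, 10 of 19 polymerase, clamp loader and single-strand binding genes, 8 of 17 licensing and firing genes, 7 of 20 G1/S genes, 2 of 9 nucleotide supply genes and 1 of 7 chromatin genes lay above 0. The lowest fold change was that of Rrm2b, an alternative small subunit of ribonucleotide reductase, at -0.27 (SE 0.28), and the highest that of Pold4, a small subunit of polymerase delta, at 0.23 (SE 0.21), both in the authors' deposited table and named after their values were seen. Cdkn1a, the CDK inhibitor p21, came nearest to the threshold (0.14, SE 0.074, unadjusted p 0.0523, adjusted p 1.00 by the authors' DESeq2, from the authors' deposited table), and it too was named after its values were seen. Its normalized counts were 21005 and 19644 in knockout, both above the implied 18391 in wild type. The 30 genes of G2 and M phase, in which the copied chromosomes are divided, had a median of 0.0057 in the authors' deposited table, 16 above 0 and 14 below, with 0 past an adjusted p of 0.05 and 0 at an unadjusted p under 0.05 by the authors' DESeq2.

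**Figure D5:**
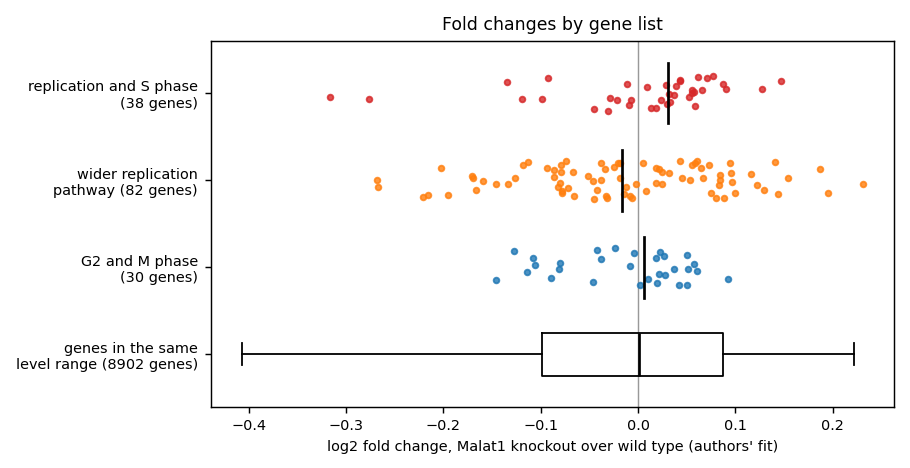
Log2 fold change, Malat1 knockout over wild type, from the authors' deposited table: each point is a gene of the replication and S phase list, the wider replication pathway or the G2 and M phase list, with black lines at the medians (0.031, -0.016 and 0.0057). The box gives the quartiles and the whiskers the 5th and 95th percentiles of the 8902 tested genes in the same range of means, and the points of all 3 lists gather around 0.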

How the data were processed

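RNA-seq was analysed from 2 Malat1 knockout Th17 libraries, grouped by their titles. The authors deposited raw counts, whole reads for each gene and library. Normalized counts are a signal in which the authors scaled the counts with 1 size factor for each library, and the authors' mean of it covers 4 libraries. The authors also deposited log2 fold changes with standard errors, the Wald score (fold change over standard error), p-values and adjusted p-values. The submitters' processing notes name STAR 2.6.1a, featureCounts, DESeq2 1.18.1 and mm10. For the annotation, strand setting and model factors, the sources used here say nothing. A further 4 per-sample columns belong to the wild-type libraries of the other series. They match no sample of this one and stayed out of every computation, so no new test between genotypes was run. Their opening rows were seen when the deposited table was opened, and the remark on unlike wild-type libraries rests on that sight.

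Fold changes are knockout over wild type: their sign matched the side of the overall mean on which the knockout lay for 97.8% of genes. The implied wild-type mean has an error that is not known here. It gave log2 ratios within 0.012 of the deposited fold changes for all replication genes. Exon lengths came from GENCODE M21 (97.3% of gene identifiers matched with version). Promoters came from RefSeq. Members and lists were chosen with earlier results of these data known. All members could be named; values per library are given for the 6 highest and 6 lowest fold changes, the MCM ring and the 3 largest replicate differences. Alternatives were computed with Python 3.11.15, scipy 1.17.1, statsmodels 0.14.6 and, for scaling, edgeR 4.0.16 and DESeq2 1.42.0 in R 4.3.3. The adjustment and GC steps were tested on simulated data. Where nothing says that the 2 libraries came from separate animals, p-values measure only the spread between samples. The precision of each value is limited by totals of 21554852 and 26916169 counts.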

Additional observations from a re-analysis of the deposited data

How the results depend on the processing

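The count of replication genes past an adjusted p of 0.05 was 0 under each alternative computed: adjustment over every gene with a p-value, a minimum mean of 50, leaving out near-absent genes, subtracting the GC trend, dividing the Wald statistic by its SD, and an unadjusted p under 0.05. The same held for the 82 further pathway genes. Subtracting the GC trend (lowess, fraction 0.3) turned the sign of 7 genes with values near 0 in the authors' deposited table: Cdt1 to -0.023, Mcm5 to -0.0040, Gins2 to -0.0073, Fen1 to -0.027, Lig1 to -0.015, Ccne1 to -0.0093 and Prim1 to 0.0097. It also brought some of the lowest values nearer to 0, with Ccne2 at -0.17, Hells at -0.0069 and Pola1 at -0.041, while Gins1 stood at -0.27. E2f1 came to 0.037, Mcm7 to 0.033 and Uhrf1 to 0.026. Other genes moved away from 0, among them Tipin to 0.0995, Dtl to 0.100, Rrm1 to 0.075, Chaf1b to -0.14 and Ung to -0.078. The list's median log2 fold change was 0.0080 after the GC trend was subtracted, 0.054 relative to the median of all genes, 0.035 for the 28 genes whose exons no other gene overlaps (chosen after seeing the data), and from -0.021 to 0.067 with 1 knockout library left out. The median level was 1213 to 1283 normalized counts with 1 library left out. Scaling moved the median log2 ratio between the knockout libraries to 0.13 by library totals, with 34 genes higher in replicate 2, while edgeR TMM and DESeq2 median of ratios gave 0.10 each. Without mitochondrially encoded genes and the 20 most abundant genes, the replication genes' share of counts was 0.371% in replicate 1 and 0.405% in replicate 2. With transcript lengths, chosen after seeing the data, the ratio between MCM subunits was 3.08, and those of Rrm2 to Rrm1 and of Chaf1a to Chaf1b were 1.24 and 1.06. E2F words stood in 27.8% of promoters before the start alone and in 30.6% with TTTCCCGC and TTTGGCGC alone. No paired analysis was possible because the samples form 1 group. With 2 libraries and the standard errors deposited, changes of 1.2-fold in both directions were left out by the intervals of 0 of the 38 genes.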
